A study of Ovis aries with 12 samples.

Results

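Collagen transcripts of the sheep embryo (Ovis aries) were followed across 2 breeds and 2 ages. Members were the rows of the deposited gene table whose symbol reads COL, a number, A and a number, and 38 of the 26247 rows met that rule. Grouped by the structure of the chain they encode, these were 11 fibrillar, 8 basement membrane, 6 network, 7 FACIT (fibril-associated with interrupted triple helices), 4 transmembrane and 2 other collagens. A further 4 rows carry no symbol and are described in the table as COL6A1, COL7A1, COL9A3 and COL20A1. They fall outside the rule and outside every class count and sum. COL6A1 and COL9A3 were used as partners in chain ratios, and all 4 rows are described at the end.

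The study sequenced RNA in bulk from whole embryos that had been digested to cell suspensions, with 3 libraries in each of 4 groups. The experimental breed was the Hulunbuir short-tail sheep and the control was the Ujumqin sheep, each with embryos of day 16 and of day 25. No group carries a transgene, deletion or drug treatment in its labels, and enzymatic dissociation was common to all of them. Whether replicate libraries stem from separate embryos or animals is not stated in the labels, so each p-value measures only their spread, which may be technical.

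Collagens are secreted or membrane proteins built of alpha chains wound into a triple helix. Fibrillar collagens assemble into the cables of bone, skin, tendon and cartilage, type IV forms the sheet of basement membranes, and FACIT collagens sit on the surface of fibrils. Cartilage uses a set of its own (types II, IX and XI), whereas type I and type III fill loose connective tissue. Some types are made of one chain only, whereas others need partner chains from different genes, such as COL1A1 with COL1A2 and COL4A1 with COL4A2.

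Depth was 49944437 to 55455815 total counts a library for Ujumqin day 16, 43131962 to 51241161 for Hulunbuir day 16, 30464606 to 33171681 for Ujumqin day 25 and 32625184 to 39643588 for Hulunbuir day 25. Libraries varied more at day 16 than at day 25: the common biological coefficient of variation estimated by edgeR was 43.76% at day 16 and 18.07% at day 25, and the median over the tested collagens was 47.21% and 15.65%. One library stood apart at day 16. In Hulunbuir replicate 2 collagens took 10.46% of all counts, against 3.305% and 3.333% in the other Hulunbuir day 16 libraries. Of the 30 collagens tested, 19 were above both of its partner libraries and 13 were over 2-fold above their mean, whereas 20.6% and 6.65% of all tested genes were. In Ujumqin day 25 replicate 1, 24 of 30 collagens were above both partners, against 52.7% of all tested genes, and 2 collagens were over 2-fold above their mean, against 4.59%. The Hulunbuir day 25 libraries were the most alike of any group, with collagens at 2.152%, 2.109% and 2.145% of counts, but they still differed by more than sampling noise (chi-square per degree of freedom 17.5 to 21.9 between pairs). In bulk RNA, fewer cells of a type and less RNA per cell cannot be told apart, which holds for every level below.

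Levels are given as FPKM, fragments per kilobase of gene model scaled by library size, as deposited. Of the 38 collagens, 30 reached 1 FPKM or more in 3 or more of the 12 libraries and were tested. All 11 fibrillar chains did, as did 6 of 8 basement membrane, 3 of 6 network, 6 of 7 FACIT, 3 of 4 transmembrane and 1 of 2 other collagens. The 8 below the filter were COL4A3 and COL4A4 (basement membrane chains known from kidney and lung), COL6A5 and COL6A6, COL10A1 (the chain of hypertrophic cartilage), COL21A1, COL25A1 and COL28A1. Their highest value in any library was 2.26 FPKM, for COL25A1 in Ujumqin day 16 replicate 3. COL10A1 had no count in 3 of the 12 libraries, where a count of 0 allows up to 3 counts, or 0.0585 to 0.092 CPM in those libraries (counting error only).

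**Figure D1:**
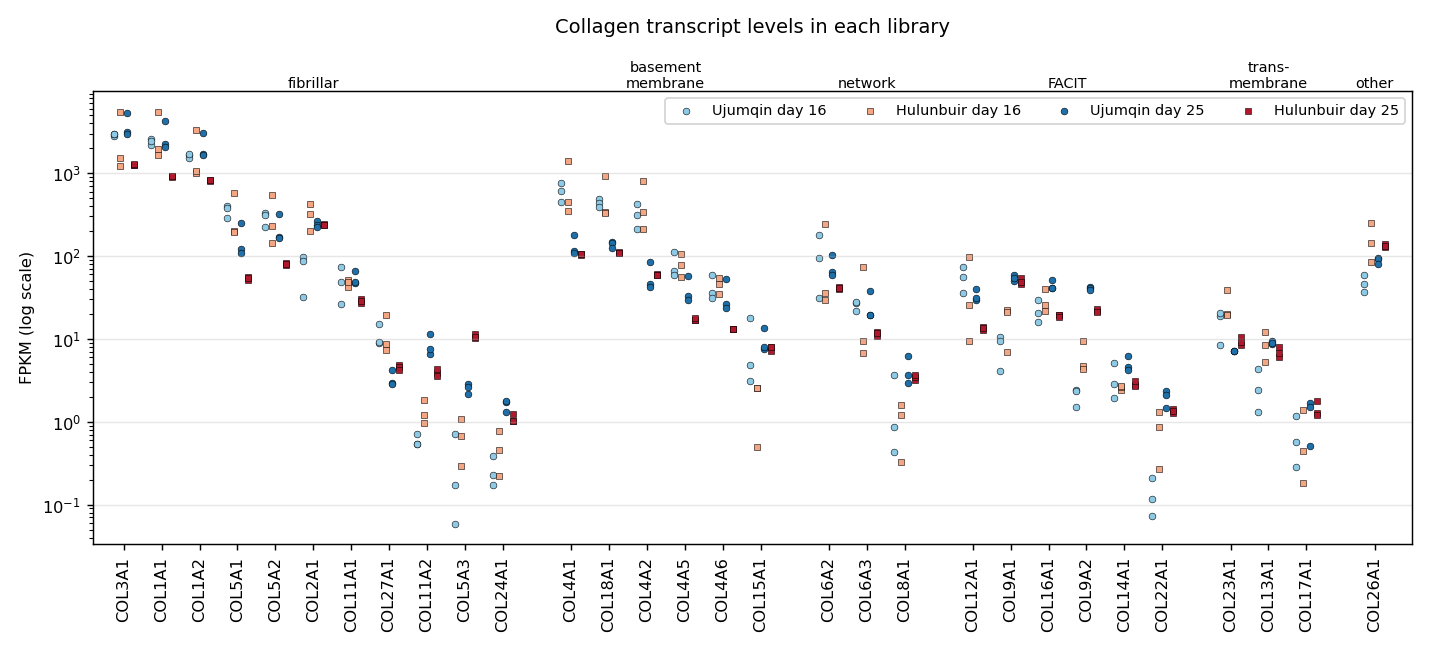
FPKM (log axis) of the 30 tested collagens in each of the 12 libraries, ordered by class and, within a class, by mean level; colour and marker give breed and age. COL3A1, COL1A1 and COL1A2 lie above 800 FPKM in all 12 libraries, and the 3 Hulunbuir day 25 points of most collagens nearly coincide.

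The fibrillar chains of type I and type III were the most abundant collagens in every library. COL3A1 (chr2:119229422-119270385 in Oar_v3.1, reverse strand), the single chain of type III collagen, was at 2799, 3010 and 2976 FPKM in Ujumqin day 16, 1205, 5514 and 1535 in Hulunbuir day 16, 5334, 3138 and 3001 in Ujumqin day 25 and 1272, 1241 and 1273 in Hulunbuir day 25. COL1A1 (chr11:35993829-36010034, forward strand), the main chain of type I collagen, was at 2591, 2177 and 2432 FPKM in Ujumqin day 16, 1939, 5544 and 1679 in Hulunbuir day 16, 4245, 2251 and 2068 in Ujumqin day 25 and 919.7, 904.1 and 935.5 in Hulunbuir day 25. For both genes the day 16 groups overlapped, with Hulunbuir replicate 2 highest of all 12 libraries, and every Hulunbuir day 25 library was below every Ujumqin day 25 library. The fibrillar chains together made 81.4% ± 2.88 (SD, n = 3) of the summed collagen FPKM in Ujumqin day 16, 78.4% ± 2.58 in Hulunbuir day 16, 91.9% ± 1.14 in Ujumqin day 25 and 84.5% ± 0.491 in Hulunbuir day 25 (n = 3 each).

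COL2A1 (chr3:138375066-138404671, forward strand), the chain of cartilage and notochord collagen, followed another course. It was at 96.8, 32.2 and 87.3 FPKM in Ujumqin day 16, 419.8, 200.1 and 325 in Hulunbuir day 16, 262, 235 and 227 in Ujumqin day 25 and 241, 238 and 239 in Hulunbuir day 25. All 3 Hulunbuir day 16 libraries exceeded all 3 Ujumqin day 16 libraries, while the day 25 groups overlapped on this scale. Within Hulunbuir day 16, replicate 2, the highest for COL1A1 and COL3A1, was the lowest for COL2A1. COL11A1, a cartilage partner chain, averaged 49.7 ± 23.8, 47.3 ± 4.96, 53.9 ± 9.9 and 28.6 ± 1.68 FPKM in Ujumqin day 16, Hulunbuir day 16, Ujumqin day 25 and Hulunbuir day 25 (SD, n = 3 each).

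Basement membrane chains were the next most abundant class, and their sum differed most between ages among the classes (day 25 minus day 16, log2 -1.86 in Ujumqin and -2.36 in Hulunbuir, a description with no test). COL4A1 (chr10:84218174-84267989, reverse strand), which pairs with COL4A2 in the common type IV network, was at 767, 602 and 444 FPKM in Ujumqin day 16, 454, 1396 and 349 in Hulunbuir day 16, 178, 116 and 107 in Ujumqin day 25 and 102, 105 and 105 in Hulunbuir day 25. COL18A1 (chr1:263365064-263422969, forward strand), whose tail is the source of endostatin, was at 487, 438 and 388, then 339, 921 and 331, then 148, 143 and 123, and last 109.5, 113 and 109 FPKM in the same order of groups. For both genes every day 16 library was above every day 25 library. The 6 chains tested and 2 below the filter summed to 1778, 1444 and 1237 FPKM in Ujumqin day 16 and 1224, 3282 and 1017 in Hulunbuir day 16, but to 536, 371.4 and 335 in Ujumqin day 25 and 310.8, 314.2 and 311.9 in Hulunbuir day 25. As a share of the collagen FPKM this class was at 15.6% ± 2.29 and 17.1% ± 1.41 at day 16 and at 4.10% ± 0.37 and 7.71% ± 0.11 at day 25, in Ujumqin and Hulunbuir (SD, n = 3).

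Network collagens summed to between 40.88 and 319.9 FPKM in a library and FACIT collagens to between 65.74 and 192.7. COL6A2, a chain of the beaded filaments around cells, was at 179.8, 94.7 and 31.3 FPKM in Ujumqin day 16, 35.5, 245 and 29.8 in Hulunbuir day 16, 104, 63.8 and 59.6 in Ujumqin day 25 and 39.9, 41.8 and 41 in Hulunbuir day 25. COL12A1, a FACIT of dense connective tissue, was at 55.7, 36.2 and 73, then 9.43, 97.6 and 25.5, then 40.5, 29.7 and 31.3, and last 14, 12.9 and 13.6 FPKM in the same order. In both genes the Hulunbuir day 16 libraries spanned the values of the other groups, with replicate 2 at the top. COL6A3, the longest type VI chain, averaged 25.5 ± 3.43, 30.1 ± 38.2, 25.5 ± 10.5 and 11.6 ± 0.673 FPKM (SD, n = 3), again in that order.

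Among transmembrane collagens COL23A1 was at 18.9, 20.6 and 8.36 FPKM in Ujumqin day 16, 19.8, 38.4 and 19.6 in Hulunbuir day 16, 7.12, 7.15 and 7.07 in Ujumqin day 25 and 8.52, 10.6 and 9.2 in Hulunbuir day 25. COL13A1, a collagen of cell contacts and the neuromuscular junction, was at 2.44, 1.31 and 4.38, then 8.34, 5.28 and 12.2, then 9.48, 8.7 and 8.87, and last 6.1, 6.8 and 8.02 FPKM. COL23A1 was thus lower in all day 25 libraries of a breed than in its day 16 libraries, whereas COL13A1 had its lowest values in Ujumqin day 16.

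**Figure D2:**
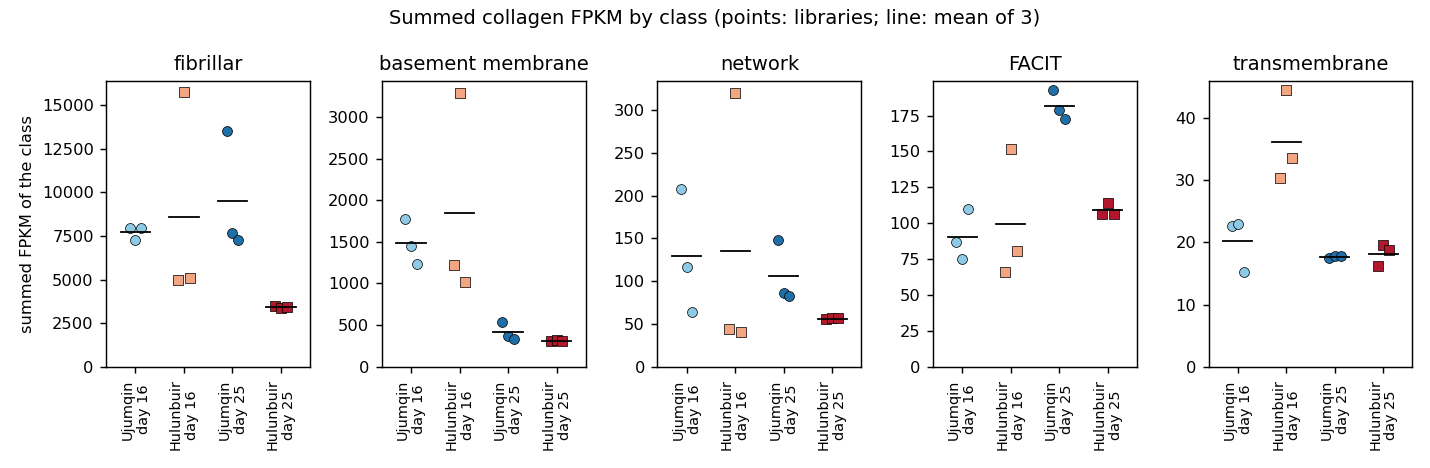
Summed FPKM of the 5 main collagen classes in each library (points; line, mean of 3), each panel with its own axis from 0. The basement membrane sum lies between 1017 and 3282 at day 16 and between 310.8 and 536 at day 25, and Hulunbuir day 16 replicate 2 is the top point of its group in all 5 panels.

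The first comparison asked how the breeds differed at day 16. None of the 30 tested collagens passed an adjusted p of 0.05 in the 6 day 16 libraries (edgeR quasi-likelihood test), and few genes of any kind did: 0.0206% of the 14595 tested genes were called, 0.0137% higher and 0.00685% lower. On simulated counts this fit recovered 0% of 2-fold and 17% of 4-fold changes, so the lack of calls does not show that the breeds were alike. At an unadjusted p under 0.05 there were 7 of the 30 collagens, a share near the 20.2% of all genes. The median log2 change of the collagens, Hulunbuir minus Ujumqin, was 0.28, beside 0.01 over all genes. It depended on Hulunbuir replicate 2, without which the median was -0.35, with 11 collagens positive and 19 negative, none called by edgeR and 15 at an unadjusted p under 0.05, against 21.1% of all genes.

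The 3 collagens with the smallest p among the higher ones were COL2A1, COL26A1 and COL22A1. COL26A1 (chr24:35124398-35319320, reverse strand), also known as EMID2, was at 59.4, 36.4 and 46.4 FPKM in Ujumqin and 250.3, 84.9 and 142 in Hulunbuir at day 16. COL22A1, a FACIT of tissue junctions, was at 0.116, 0.072 and 0.211 FPKM in Ujumqin and 0.859, 0.266 and 1.31 in Hulunbuir. In all 3 genes the 2 breeds did not overlap at day 16. The log2 changes were 2.04 ± 0.45 (SE) for COL2A1, 1.65 ± 0.39 for COL26A1 and 2.47 ± 0.62 for COL22A1, with edgeR adjusted p of 0.12, 0.124 and 0.131.

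The labels name no pairing of libraries between breeds, but at day 16 same-numbered Ujumqin and Hulunbuir libraries deviated together from their group means. The blocked fit is printed because of that pattern in these same data, so it adds no independent support. With the replicate number as a block the same 3 collagens were called higher, COL2A1 (adjusted p = 0.041), COL26A1 (0.0435) and COL22A1 (0.0497, edgeR), against 0.891% of all genes called higher and 2.01% called in either direction in that fit. DESeq2 without the block called 6 collagens higher and 1 lower, against 4.74% and 6.28% of all genes. On the lower side no collagen passed either edgeR fit. COL15A1, a multiplexin of the basement membrane zone, had the largest negative value, at 3.06, 4.84 and 18.1 FPKM in Ujumqin and 0.501, 2.58 and 2.53 in Hulunbuir (log2 -2.24 ± 0.82, edgeR adjusted p = 0.199). COL14A1 and COL8A1 followed, at log2 -0.41 ± 0.35 and -0.78 ± 0.83.

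Of the collagens, 6 had no overlap between breeds with Hulunbuir higher, against 13.2% of all genes, and 1 with Hulunbuir lower, against 11.1%. Besides COL2A1, COL26A1 and COL22A1, these higher ones included COL9A2 (2.44, 2.35 and 1.49 FPKM in Ujumqin, 9.45, 4.74 and 4.39 in Hulunbuir), COL11A2 (0.707, 0.535 and 0.54 against 1.21, 0.965 and 1.83) and COL13A1, given above. COL2A1, COL9A2 and COL11A2 encode cartilage collagens. Their cartilage partners COL9A1 (10.68, 4.043 and 9.341 FPKM in Ujumqin, 22.01, 6.885 and 20.84 in Hulunbuir) and COL11A1 (48.77, 26.35 and 73.99 against 41.89, 51.64 and 48.32) overlapped between breeds. Summed over 10 cartilage markers, day 16 FPKM ranged from 27.88 to 35.41 in Ujumqin libraries and from 54.47 to 117.8 in Hulunbuir ones, where 1 and 5 of them reached 1 FPKM in all 3 libraries and the cartilage matrix gene MATN1 had no count in Hulunbuir. Most of that sum was HAPLN1, a link protein of cartilage matrix, at 22.81 to 27.29 FPKM in Ujumqin and 36.9 to 105.5 in Hulunbuir, and none of the 7 cartilage markers tested was called by edgeR. Sums for some other tissues lay the opposite way. Those over 10 erythroid markers were 942.4 to 4200 FPKM in Ujumqin and 80.5 to 171.1 in Hulunbuir, with all 10 negative, 7 of them without overlap and none called. Sums over 12 yolk sac and liver markers were 24010 to 61240 against 4241 to 13360 FPKM, with 7 lower in Hulunbuir without overlap, 2 higher and none called. The part of these markers in the collagen values was not tested.

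At day 25 most collagens were lower in Hulunbuir. Of the 30, 23 were called lower and 2 higher (edgeR, 6 day 25 libraries), where 46.0% of all tested genes were called, 22.7% lower and 23.3% higher. The median log2 change of the collagens was -1.01, beside 0.03 over all genes. By class, 9 of 11 fibrillar chains fell and 1 rose, 5 of 6 basement membrane chains, 2 of 3 network chains, all 6 FACIT chains and 1 of 3 transmembrane chains fell, and COL26A1 rose. Of these 25 calls 12 were kept in every alternative fit, with other tools, scales or sets of libraries. Among the FACIT chains COL9A1 and COL22A1 each lost the call in 4 of 15 such fits, and COL12A1 in 1. COL4A2, COL8A1, COL17A1, COL23A1 and COL27A1 did not pass. Counting libraries that did not overlap in FPKM, 20 collagens were lower and 3 higher, against 13.2% and 49.1% of all genes.

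The largest falls were those of the abundant fibrillar chains. COL1A1 fell by 1.94 ± 0.22 on the log2 scale (edgeR adjusted p = 0.000279) and COL3A1 by 1.91 ± 0.18 (0.000112). COL5A1, which sets fibril diameter, was at 251, 122 and 109 FPKM in Ujumqin and 55.6, 51.7 and 54.2 in Hulunbuir and fell by 1.89 ± 0.25 (0.000614). Its partner COL5A2 was at 321, 168 and 163 against 83.3, 78.3 and 79.7 FPKM and fell by 1.75 ± 0.21 (0.000402). In each of these 4 genes Ujumqin replicate 1 was the highest library and the breeds did not overlap. Without Ujumqin replicate 1 the calls were 23 lower and 3 higher, with a median of -0.97, against 27.0% and 28.6% of all genes. The log2 changes were then -1.60 for COL1A1, -1.65 for COL3A1, -1.47 for COL5A1 and -1.41 for COL5A2. Those of the FACIT chains COL12A1 and COL16A1 were -1.54 and -1.46, so the order of the falls depended on that library.

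COL5A3 (chr5:12222994-12268229, reverse strand) went the other way from its type V partners. Its product is the third chain of type V collagen. It was at 2.18, 2.88 and 2.65 FPKM in Ujumqin and 11.6, 10.2 and 10.7 in Hulunbuir, without overlap, and rose by 1.74 ± 0.14 on the log2 scale (edgeR adjusted p = 4.7e-05). COL26A1, at 94.4, 92.4 and 80.8 against 127, 141 and 133 FPKM, also did not overlap and rose by 0.26 ± 0.08 (adjusted p = 0.0311). Leaving out Ujumqin replicate 3 (adjusted p = 0.0951 by edgeR), or Hulunbuir replicate 2 (0.115) or 3 (0.0872), ended that call. COL15A1 fell by 0.64 ± 0.18 (0.0193) and lost its call when any 1 Hulunbuir library was left out (0.0526 to 0.0701).

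Cartilage collagens fell unequally. COL9A2 (chr1:14676505-14694890, reverse strand), at 42.8, 41.2 and 39.2 FPKM in Ujumqin and 21.6, 22.7 and 20.9 in Hulunbuir, fell by 1.24 ± 0.07 (edgeR adjusted p = 1.29e-05). COL11A2, at 11.4, 6.57 and 7.63 against 3.87, 4.31 and 3.56 FPKM, fell by 1.44 ± 0.17 (0.000343). COL2A1 fell by 0.34 ± 0.07 in the count fit (0.00458), although its mean FPKM was 241 ± 18.7 in Ujumqin and 239 ± 1.59 in Hulunbuir (SD, n = 3). The FPKM scale and the count fit are centred differently at day 25: the median log2 change of all genes was 0.29 on log2(FPKM + 1) and 0.03 in the count fit. On log2(FPKM + 1), limma called 17 collagens lower and 3 higher, against 10.2% and 42.6% of all genes, and COL2A1 was not called (adjusted p = 0.926); on FPKM rescaled to a common sum its sign turned, to 0.10. With the spread estimated over all 12 libraries, 12 collagens were called lower and none higher, against 8.84% and 7.88% of all genes.

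Markers of other tissues differed between the day 25 groups as well, where 23.3% of all genes were called higher and 22.7% lower. Summed over 10 erythroid markers, FPKM ranged from 2012 to 2528 in Ujumqin libraries and from 16580 to 19450 in Hulunbuir ones, with 9 of 10 called higher. Over 12 yolk sac and liver markers the ranges were 4893 to 7364 for Ujumqin and 18900 to 20390 for Hulunbuir, with 9 of 12 called higher. Over 11 mesenchyme markers they were 3540 to 4552 for Ujumqin and 2435 to 2477 for Hulunbuir, with 6 called lower and 3 higher, and none of these lists held a marker without counts in a whole group. Of 12 genes of immediate early response and tissue dissociation, 11 were called lower and 1 higher. The part of these differences in the collagen result was not tested.

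**Figure D3:**
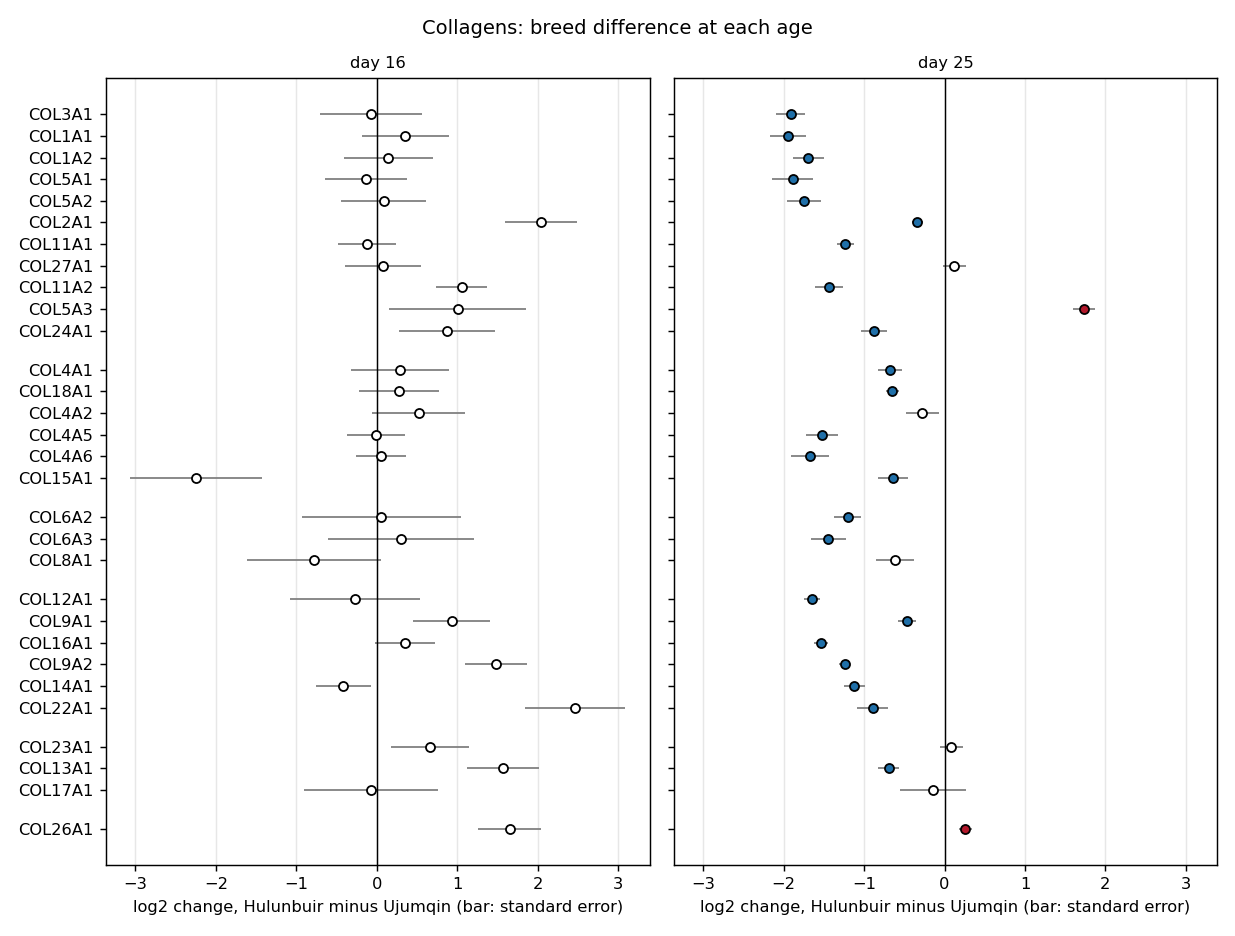
Log2 change between breeds (Hulunbuir minus Ujumqin) of the 30 tested collagens at day 16 and day 25, with standard errors from edgeR; filled points passed an adjusted p of 0.05 (blue lower, red higher). No point is filled at day 16, and 25 are at day 25, 23 of them to the left of 0.

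The second comparison followed each breed from day 16 to day 25 (edgeR, 12 libraries). In Ujumqin 11 collagens rose and 6 fell, where 63.6% of all genes were called, 30.7% higher and 32.9% lower, and the median log2 change was 0.44, beside -0.07 over all genes. In Hulunbuir 5 rose and 14 fell, where 40.5% of all genes were called, 18.9% higher and 21.6% lower, and the median was -1.14, beside -0.04. Without Hulunbuir day 16 replicate 2 the Hulunbuir comparison called 6 collagens higher and 10 lower, with a median of -0.38, against 18.5% and 19.4% of all genes. Without Ujumqin day 25 replicate 1 the Ujumqin comparison called 10 higher and 6 lower, with a median of 0.15, against 28.0% and 31.5%. Without overlap of FPKM between ages, 10 collagens were higher and 7 lower at day 25 in Ujumqin, against 30.9% and 36.9% of all genes, and 7 higher and 13 lower in Hulunbuir, against 33.4% and 21.6%. Every breed and age comparison shares libraries with others, so their counts are not independent of one another.

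COL4A1, COL4A2, COL4A5 and COL18A1 fell with age in both breeds, and COL4A6 in Hulunbuir. In Ujumqin COL4A1 fell by 2.06 ± 0.51 on the log2 scale (edgeR adjusted p = 0.00462) and COL4A2 by 2.33 ± 0.51 (0.00218). In Hulunbuir they fell by 3.08 ± 0.53 (0.00117) and 3.18 ± 0.53 (0.000918), and by 2.01 and 2.29 without Hulunbuir day 16 replicate 2. COL18A1 fell by 1.53 ± 0.40 in Ujumqin (0.00584) and by 2.50 ± 0.41 in Hulunbuir (0.000834), or by 1.66 without that library. COL4A5 fell by 2.42 ± 0.34 in Hulunbuir (0.000318) and by 0.85 ± 0.32 in Ujumqin (0.0368), where the call was lost without any one of 4 libraries (0.05 to 0.152). COL4A6 fell by 1.94 ± 0.31 in Hulunbuir (0.000769) and was at -0.16 ± 0.30 in Ujumqin (0.661), and the difference between breeds passed (interaction -1.78 ± 0.43, 0.0169).

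Markers of endothelium, trophoblast and yolk sac, tissues that rest on or make basement membranes, differed between ages too. Summed over 9 endothelium markers, FPKM ranged from 130 to 262.6 for Ujumqin day 16, 300.4 to 310.9 for Hulunbuir day 16, 63.53 to 86.23 for Ujumqin day 25 and 85.91 to 90.63 for Hulunbuir day 25. Of these 9, 5 fell in Ujumqin and 7 in Hulunbuir, against 32.9% and 21.6% of all genes, and all 9 reached 1 FPKM in all libraries of each group. Of 10 trophoblast markers 8 fell in Ujumqin and 6 in Hulunbuir, against those same shares. Their sums lay between 1730 and 5621 FPKM at day 16 and between 327.3 and 595 at day 25 over both breeds. Most of each sum was the keratin KRT8, at 1320 to 4247 FPKM at day 16 and 221.8 to 409.7 at day 25. Of 12 yolk sac and liver markers 10 fell in Ujumqin, against 32.9% of all genes. In Hulunbuir 3 of the 12 rose and 4 fell, against 18.9% and 21.6%. The part of these tissue markers in the fall of the basement membrane collagens was not tested.

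COL15A1 was the one basement membrane member that rose, in Hulunbuir, by 1.87 ± 0.66 (edgeR adjusted p = 0.0402), from 0.501, 2.58 and 2.53 FPKM to 8.01, 7.23 and 7.94. Its call was lost when any 1 of 7 libraries was left out, all of them in Hulunbuir or Ujumqin day 25, with adjusted p from 0.0519 to 0.0885. In Ujumqin, where day 16 replicate 3 at 18.1 FPKM was above every day 25 library, it did not pass (0.33 ± 0.63). COL27A1, a fibrillar chain of growing cartilage, fell in both breeds by 1.61 ± 0.40 (0.00442 in Ujumqin, 0.00811 in Hulunbuir), from 15.1, 8.94 and 9.11 to 4.23, 2.91 and 2.83 FPKM in Ujumqin and from 7.33, 19.3 and 8.67 to 4.78, 4.57 and 4.2 in Hulunbuir. In Hulunbuir the fall was 0.87 on the log2 scale without day 16 replicate 2. COL23A1 fell in both breeds too, by 1.04 ± 0.40 in Ujumqin (0.0367) and 1.67 ± 0.40 in Hulunbuir (0.00691, and by 1.11 without day 16 replicate 2), but the Ujumqin call was lost without any one of 5 Ujumqin libraries (0.0685 to 0.127).

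Cartilage collagens did not move as one with age. COL9A1, COL9A2 and COL11A2 rose in both breeds, COL2A1 rose in Ujumqin and did not pass in Hulunbuir, and COL11A1 fell in Hulunbuir and did not pass in Ujumqin. COL9A2 rose by 4.42 ± 0.33 in Ujumqin (edgeR adjusted p = 2.85e-06) and by 1.65 ± 0.29 in Hulunbuir (0.00142). COL11A2 rose by 3.96 ± 0.25 (1.33e-06) and 1.42 ± 0.22 (0.000642). COL9A1, a partner of COL9A2 at 10.7, 4.04 and 9.34 FPKM in Ujumqin day 16, 22, 6.88 and 20.8 in Hulunbuir day 16, 49.7, 59.6 and 53.8 in Ujumqin day 25 and 45.7, 54.2 and 48.7 in Hulunbuir day 25, rose by 2.91 ± 0.39 (8.37e-05) and 1.47 ± 0.37 (0.00933). All day 25 libraries exceeded all day 16 libraries for these 3 genes. The cartilage marker sum was 152 to 204.3 FPKM for Ujumqin day 25 and 104.8 to 110.3 for Hulunbuir day 25, above the day 16 range in Ujumqin and within it in Hulunbuir. Its largest member at day 25 was MIA, at 98.99 to 157 FPKM in Ujumqin and 42.25 to 50.21 in Hulunbuir. HAPLN1, the largest at day 16, was then at 6.613 to 13.48 and 6.686 to 7.824 FPKM, so the sums of the 2 ages rest mostly on different genes. In each breed 5 of the 7 markers tested rose and 1 fell, against 30.7% and 32.9% of all genes in Ujumqin and 18.9% and 21.6% in Hulunbuir.

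Besides COL9A1, COL9A2 and COL11A2, 8 collagens rose with age in Ujumqin, and one of them, COL5A3, rose in Hulunbuir too. COL5A3 rose by 3.21 ± 0.66 in Ujumqin (edgeR adjusted p = 0.00139), from 0.174, 0.0589 and 0.706 FPKM (4.54 without day 16 replicate 3), and by 3.89 ± 0.67 in Hulunbuir (0.0011), from 0.669, 0.289 and 1.08 FPKM. COL22A1 rose by 4.05 ± 0.50 in Ujumqin (4.89e-05), to 1.49, 2.37 and 2.1 FPKM, and did not pass in Hulunbuir (0.65 ± 0.44, 0.262), where it reached 1.28, 1.43 and 1.35. COL24A1, COL13A1, COL2A1, COL16A1, COL26A1 and COL14A1 rose in Ujumqin and were not called higher in Hulunbuir. The difference between breeds passed for COL13A1, COL2A1, COL16A1 and COL26A1, as given below, and did not for COL24A1 (edgeR interaction adjusted p = 0.0622) and COL14A1 (0.188). The COL14A1 call (0.74 ± 0.28, 0.0335) was lost without any one of 4 Ujumqin libraries (0.0726 to 0.136).

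Of the interstitial fibrillar chains COL1A1, COL1A2, COL5A1 and COL5A2 fell in Hulunbuir, and none of these passed in Ujumqin. COL5A1 fell by 2.83 ± 0.48 in Hulunbuir (edgeR adjusted p = 0.00105), COL5A2 by 2.17 ± 0.47 (0.00414) and COL1A1 by 1.98 ± 0.47 (0.00698). Without Hulunbuir day 16 replicate 2 these falls were 1.94, 1.25 and 1.03, all still called. COL1A2, COL12A1, COL16A1 and COL11A1 were also called lower in Hulunbuir, but each lost its call without that library (log2 -0.38, -0.38, -0.34 and -0.70) and without any 1 Hulunbuir day 25 library. COL3A1, at -1.39 ± 0.53, missed the threshold (0.0548). The difference between breeds passed for COL1A1 alone of these 5 chains, and did not for COL1A2, COL3A1, COL5A1 and COL5A2 (edgeR interaction adjusted p of 0.0604 to 0.0929). Other tissues moved over the same interval in Hulunbuir. All 10 erythroid markers were called higher with age (median log2 5.34), against 18.9% of all genes. Their sums were 80.5 to 171.1 FPKM at day 16 and 16580 to 19450 at day 25. Of 11 mesenchyme markers 6 rose and 2 fell, against 18.9% and 21.6% of all genes, with sums of 1660 to 2055 and 2435 to 2477 FPKM. Their part in the fall of the fibrillar chains was not tested.

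**Figure D4:**
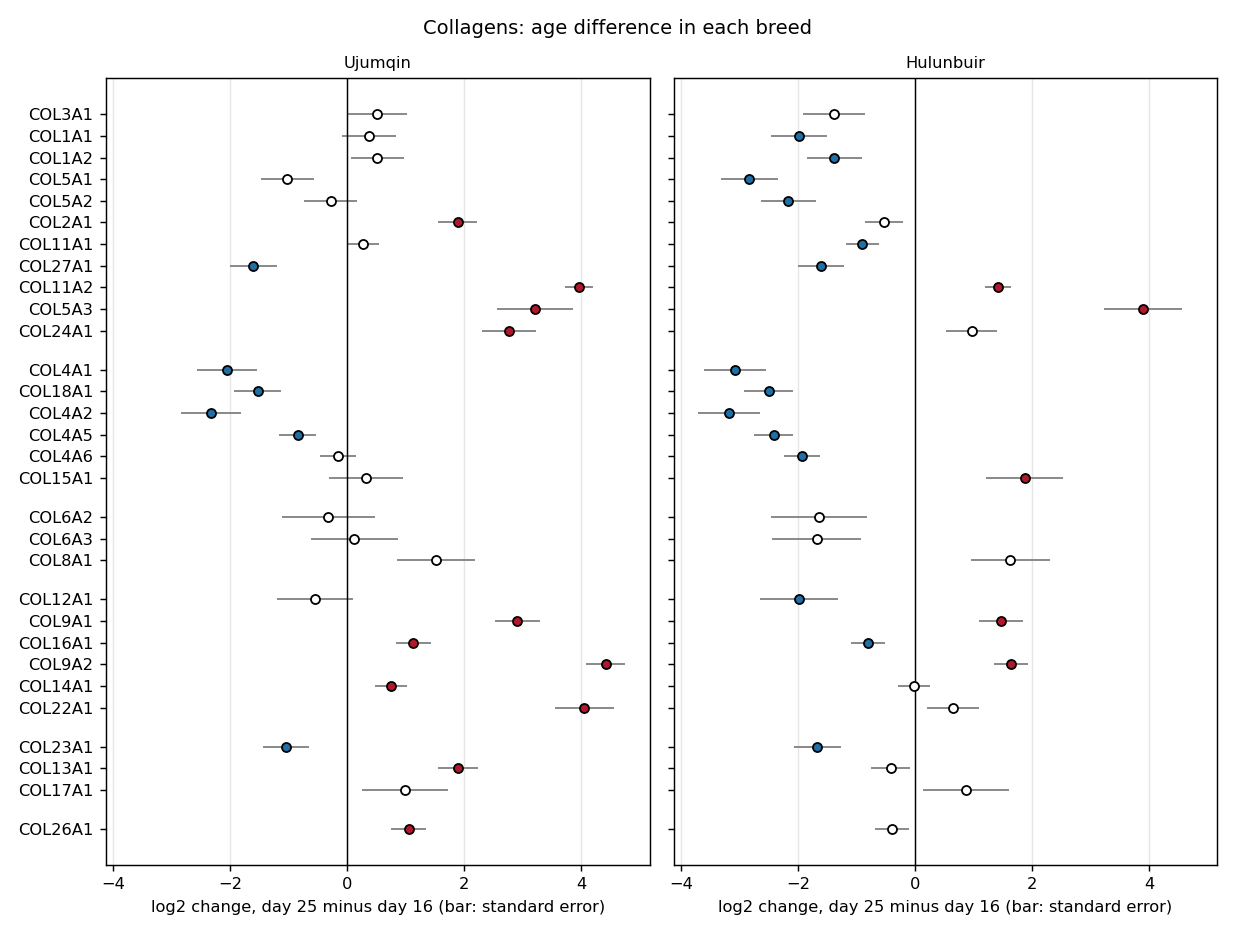
Log2 change from day 16 to day 25 of the 30 tested collagens in Ujumqin and in Hulunbuir, with standard errors from edgeR; filled points passed an adjusted p of 0.05 (blue lower, red higher). In Ujumqin 11 points are red and 6 blue, and in Hulunbuir 5 are red and 14 blue.

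The change with age was then compared between breeds by an interaction term. It was more negative in Hulunbuir for 10 of 30 collagens and more positive for none (edgeR), where 19.2% of all genes were called, 10.3% negative and 8.89% positive. At an unadjusted p under 0.05, 17 collagens were more negative and 0 more positive, where 5156 of all 14595 tested genes passed in either direction. On log2(FPKM + 1) and on rescaled FPKM limma called COL5A3 more positive (1.37 and 1.38, adjusted p 0.0151 and 0.0183), whereas edgeR gave 0.69 ± 0.86 (0.607). The median interaction of the collagens was -1.50 on the log2 scale, beside -0.03 over all genes, and -0.87 without Hulunbuir day 16 replicate 2, when 10 were called lower, against 10.4% of all genes. The smallest adjusted p belonged to COL11A2 (-2.54 ± 0.32, 0.000938), COL9A2 (-2.77 ± 0.41, 0.00205), COL22A1 (-3.40 ± 0.65, 0.00616) and COL2A1 (-2.42 ± 0.47, 0.00643). These 4 were lower in every Ujumqin than in every Hulunbuir library at day 16, and all 4 were called lower in Hulunbuir at day 25. The day 25 calls of COL22A1 and COL2A1 were each lost in 4 of 15 alternative fits, those of limma on FPKM and of edgeR over all 12 libraries. On rescaled FPKM the COL2A1 change at day 25 was 0.101. The other 6 were COL13A1, COL16A1, COL4A6, COL1A1, COL26A1 and COL4A5. Calls of COL1A1, COL26A1 and COL4A5 were lost without any one of 7, 7 and 8 libraries, with adjusted p of at most 0.0874, and the COL1A1 value of -2.35 ± 0.66 (0.0294) was -1.37 without Hulunbuir day 16 replicate 2.

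Ratios of chains within a library do not depend on its scaling and show which partners changed unequally. FPKM ratios are ratios of transcripts per length of gene model, not of protein chains. The 12 ratios were tested between ages over the 12 libraries by an exact permutation test, two-sided, with ages exchanged within breed (400 arrangements, smallest p 0.005) and Benjamini-Hochberg adjustment over the 12. Of these, 11 passed 0.05, the exception being COL9A1/COL9A2 (adjusted exact p = 0.12). Pairs of other genes were not tested, so the share of pairs that would pass at large is not known. With age 63.6% of all genes were called by edgeR in Ujumqin and 40.5% in Hulunbuir. The pairs were also chosen with earlier results of these data known, so the count of 11 is not a result particular to collagens.

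COL1A1/COL1A2 was at 1.556, 1.428 and 1.431 in Ujumqin day 16, 1.953, 1.67 and 1.583 in Hulunbuir day 16, 1.389, 1.312 and 1.258 in Ujumqin day 25 and 1.103, 1.121 and 1.146 in Hulunbuir day 25. All day 16 libraries were above all day 25 libraries (log2 -0.39, adjusted exact permutation p = 0.01). COL5A1/COL5A2 behaved alike, at 1.217, 1.278 and 1.215, then 1.408, 1.05 and 0.8456, then 0.7805, 0.7314 and 0.6686, and last 0.668, 0.6596 and 0.6809, without overlap between ages (log2 -0.73, 0.01). These chain pairs encode partners of one heterotrimer. In Hulunbuir day 16 replicate 2, where both genes of each pair were far higher than in its partner libraries, the ratios of 1.67 and 1.05 lay between those of the other libraries.

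In the type IV pairs the ratio moved in opposite directions. COL4A1 and COL4A2 lie head to head in the annotation, 76256 bases apart on chromosome 10, and COL4A5 and COL4A6 lie head to head 1616 bases apart on the X chromosome. COL4A5/COL4A6 averaged 1.89 ± 0.0537 and 1.77 ± 0.203 at day 16 and 1.20 ± 0.0837 and 1.30 ± 0.042 at day 25 in Ujumqin and Hulunbuir (SD, n = 3), without overlap between ages (log2 -0.55, adjusted exact permutation p = 0.01). COL4A1/COL4A2 rose by 0.22 on the log2 scale (adjusted exact permutation p = 0.0225), from 1.95 ± 0.124 to 2.38 ± 0.262 in Ujumqin and from 1.58 ± 0.216 to 1.76 ± 0.0461 in Hulunbuir. That call was lost without any one of 5 libraries (0.05 to 0.0655).

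The largest ratio change was that of the multiplexins. COL15A1/COL18A1 was at 0.006288, 0.01106 and 0.04653 in Ujumqin day 16, 0.001479, 0.002801 and 0.007632 in Hulunbuir day 16, 0.09149, 0.05255 and 0.06451 in Ujumqin day 25 and 0.07316, 0.064 and 0.07307 in Hulunbuir day 25, so that every day 25 library was above every day 16 library (log2 3.33, adjusted exact permutation p = 0.01). COL9A3/COL9A2 rose from 0.491 ± 0.28 and 0.366 ± 0.22 to 1.05 ± 0.101 and 0.979 ± 0.0601 (log2 1.42, 0.01). COL6A1/COL6A2 rose by 0.80 on the log2 scale (0.01), with 0.50 in Ujumqin and 1.098 in Hulunbuir. COL3A1/COL1A1 rose by 0.45 (0.0171), with 0.16 in Ujumqin, where the ages overlapped, and 0.73 in Hulunbuir.

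In 3 ratios that fell with age the ages overlapped in one of the breeds. COL11A1/COL2A1 was at 0.5037, 0.8173 and 0.8471 in Ujumqin day 16, 0.09979, 0.258 and 0.1486 in Hulunbuir day 16, 0.2486, 0.2026 and 0.2149 in Ujumqin day 25 and 0.126, 0.1136 and 0.1186 in Hulunbuir day 25. It fell by 1.03 on the log2 scale over both breeds (adjusted exact permutation p = 0.0333), with values of -1.67 in Ujumqin and -0.39 in Hulunbuir, where the ages overlapped. COL5A2/COL1A1 fell by 0.42 (0.042), with -0.64 in Ujumqin and -0.20 in Hulunbuir, where they overlapped too. COL6A3/COL6A1 fell by 0.70 (0.0491), with -0.43 in Ujumqin, where the ages overlapped, and -0.98 in Hulunbuir. Whether these changes differed between breeds was not tested. The call of COL11A1/COL2A1 was lost without Hulunbuir day 25 replicate 2 (0.0525), that of COL5A2/COL1A1 without any one of 7 libraries (0.0533 to 0.078) and that of COL6A3/COL6A1 without any one of 10 (0.055 to 0.15).

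**Figure D5:**
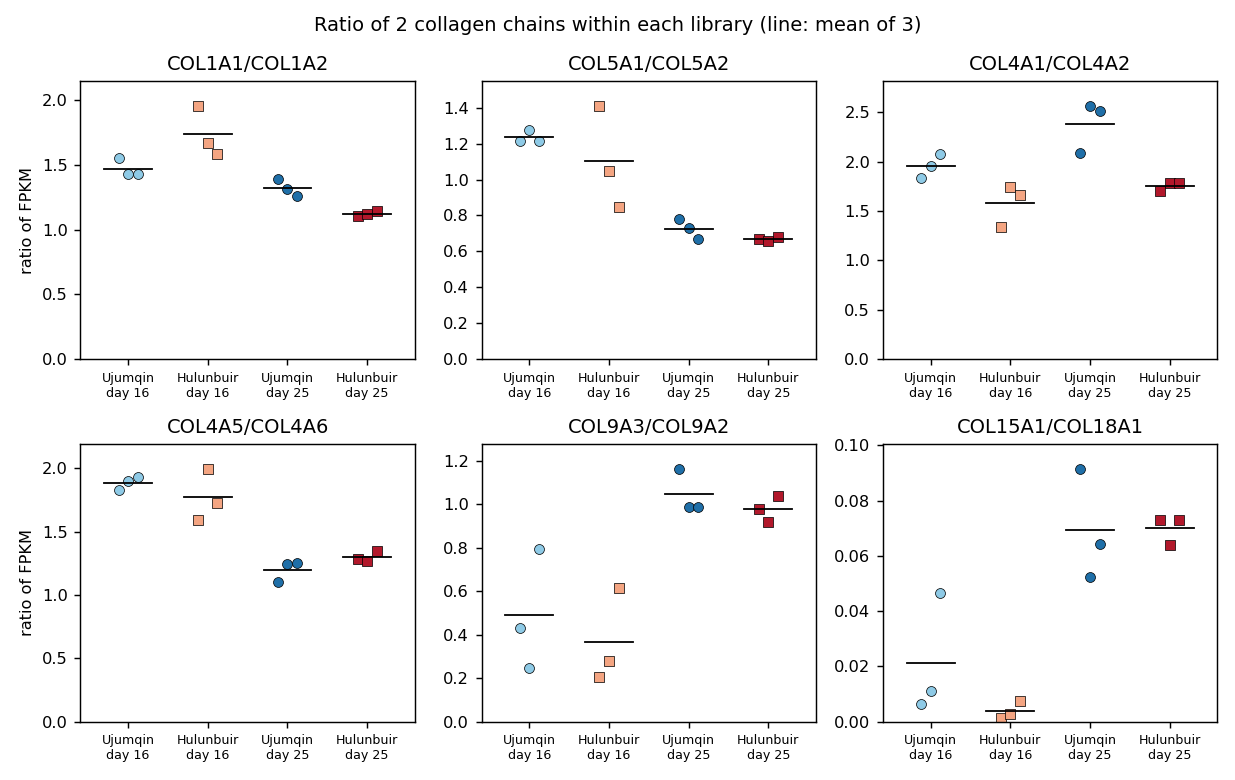
Ratio of the FPKM of 2 collagen chains within each library (points; line, mean of 3), each panel with its own axis from 0. COL1A1/COL1A2, COL5A1/COL5A2 and COL4A5/COL4A6 are higher in all day 16 than in all day 25 libraries, and COL9A3/COL9A2 and COL15A1/COL18A1 lower.

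The genes that make, cut, bind and degrade collagen were described as 5 lists. At day 16 edgeR called none of their 56 tested genes between breeds, with 5 at an unadjusted p under 0.05, against 20.2% of all genes. At day 25, 13 of 17 biosynthesis genes tested were lower in Hulunbuir and none higher (median -0.61), where 22.7% of all genes were lower and 23.3% higher. P4HA1, the catalytic subunit of prolyl 4-hydroxylase, averaged 41.2 ± 4.72 FPKM in Ujumqin and 23.1 ± 1.06 in Hulunbuir (SD, n = 3) and fell by 1.16 ± 0.08 (edgeR adjusted p = 3.28e-05). SERPINH1 (HSP47), the collagen chaperone of the endoplasmic reticulum, fell by 1.01 ± 0.07 (3.6e-05). With age 2 biosynthesis genes rose and 8 fell in Ujumqin, against 30.7% and 32.9% of all genes, and none rose and 14 fell in Hulunbuir, against 18.9% and 21.6%. PLOD2, the lysyl hydroxylase of telopeptides, fell by 3.14 ± 0.41 and 3.75 ± 0.43 (7.28e-05 and 0.000106), from 119.5 ± 30.9 and 118.3 ± 67.9 to 12.3 ± 2.02 and 10.3 ± 1.08 FPKM.

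Of 12 processing and cross-linking genes 10 were lower in Hulunbuir at day 25 and none higher, against 22.7% and 23.3% of all genes. ADAMTS2, the procollagen N-propeptidase, fell by 1.39 ± 0.14 (edgeR adjusted p = 0.000151), PCOLCE, the enhancer of C-propeptide removal, by 1.14 ± 0.10 (8.68e-05) and the lysyl oxidase LOX by 1.58 ± 0.32 (0.00414). With age 3 rose and 5 fell in Ujumqin, against 30.7% and 32.9% of all genes, and 1 rose and 8 fell in Hulunbuir, against 18.9% and 21.6%. LOXL1 rose in both, by 1.62 ± 0.15 (7.49e-06) and 0.63 ± 0.14 (0.00584), and PXDN, the peroxidasin that cross-links type IV collagen, fell in both, from 223 ± 98.4 and 305 ± 141 to 51.4 ± 11 and 51.4 ± 2.16 FPKM (edgeR adjusted p 0.00155 and 0.000573).

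Of 8 receptors tested, 3 were lower and none higher in Hulunbuir at day 25, against 22.7% and 23.3% of all genes. With age 3 rose and 4 fell in Ujumqin, against 30.7% and 32.9%, and 1 rose and 4 fell in Hulunbuir, against 18.9% and 21.6%. ITGA11, the integrin chain of fibroblasts that binds fibrillar collagen, rose by 3.83 ± 0.41 and 3.11 ± 0.40 (edgeR adjusted p 1.9e-05 and 0.0002), whereas ITGA1, a chain with affinity for type IV, fell by 2.17 ± 0.55 and 2.25 ± 0.55 (0.00499 and 0.00801). ITGA1 was at 5.58, 3.02 and 17.01 FPKM in Ujumqin day 16, and without replicate 3 of that group its Ujumqin fall was 1.26 (0.0207). Of 10 breakdown genes, 2 were higher and 5 lower in Hulunbuir at day 25, against 23.3% and 22.7% of all genes. The higher ones were MMP15 (0.85 ± 0.10, 0.000433) and MMP2 (0.34 ± 0.09, 0.014), and the inhibitors TIMP1 and TIMP2 fell by 1.20 ± 0.12 (0.000147) and 1.13 ± 0.09 (6.79e-05). The MMP2 call was lost without Hulunbuir replicate 2 (0.0504) or 3 (0.0529).

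Of 9 regulators of collagen genes, 2 were higher and 2 lower in Hulunbuir at day 25, shares near the 23.3% and 22.7% of all genes. SOX9, an activator of COL2A1 and COL11A2 in cartilage, was among the higher ones, at 12.8 ± 1.37 FPKM in Hulunbuir against 4.52 ± 2.21 in Ujumqin (log2 1.19 ± 0.28, edgeR adjusted p = 0.00826), while both of these collagens were called lower, as given above. TWIST1, a mesenchymal transcription factor, fell by 0.92 ± 0.10 (0.000278). With age 5 regulators rose in Ujumqin and 4 in Hulunbuir, against 30.7% and 18.9% of all genes, and none fell, against 32.9% and 21.6%. TWIST1 rose by 3.78 ± 0.39 in Ujumqin (1.39e-05) and 1.12 ± 0.35 in Hulunbuir (0.0246), and its interaction was -2.66 ± 0.50 (0.00568). Of the 9 regulators it alone was called in that term, with 3 positive and 6 negative, where 19.2% of all genes were called. Whether SOX9, TWIST1 or any other regulator had a part in the collagen values was not tested.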

How the data were processed

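The submitters' processing notes name cutadapt 1.9, FastQC and the sheep assembly Oar_v3.1. Total RNA came from TRIzol extraction and Illumina libraries, per the labels' protocols. Which aligner and counter were used, and whether strand was read, is not given in the sources used here. The deposited table holds, per the file headers, a count and an FPKM for each gene and library. The deposited count columns are whole numbers and not normalized. The FPKM values deposited by the authors equal the counts times a gene and a library factor (median range between libraries 0.0803% over 8029 genes), with a count of 0 written as 0.0001. All 12 libraries were matched by column name.

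The 14595 genes that reached 1 FPKM in 3 or more of 12 libraries were scaled by TMM and tested with edgeR 4.0.16 (R 4.3.3), quasi-likelihood, two-sided, Benjamini-Hochberg over all tested genes, threshold 0.05. Breed contrasts used the 6 libraries of an age, because spread differed between ages, and age contrasts and the interaction all 12. Standard errors were taken as |log2 change| over the root of F. Log2 changes come from counts and levels are FPKM. The fit was tried on simulated counts with 200 genes changed. Of 2-fold and 4-fold changes it recovered 0% and 17% at day 16, and 66% and 87% at day 25. Between ages it recovered 21% and 69% in Ujumqin, and 11% and 60% in Hulunbuir. The interaction term recovered 4% and 40%. False calls were 1 of 18 calls at day 16 and 14 of 167 at day 25. Between ages they were 11 of 101 (Ujumqin) and 9 of 80 (Hulunbuir). The interaction term gave 4 among 48. Each of these is a share above 0.05. Alternatives used DESeq2 1.42.0, limma 3.58.1 and libraries left out. Chain ratios used exact permutation tests in Python. Sums over a class or marker list are described without a test. At day 16, same-numbered libraries of the 2 breeds correlated in their deviations from group means (r = 0.144, 0.293 and 0.371, each best with its own number), so the blocked fit is printed there. A bare p in parentheses is the adjusted p of the test named earlier in its paragraph.

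Members, classes, gene lists and chain pairs were chosen with earlier results of these data known. Per-library values were given for the 2 members of highest mean FPKM in each class and, per contrast, up to 4 called members a direction with the largest change (or, with none called, the 3 with the smallest p), with 2 called genes a direction and the 2 most abundant from each pathway list; not every gene taken is printed. Marker lists for leukocytes and uterine endometrium were also compared, and leukocyte sums stayed at or below 111 FPKM. Endometrium sums were 270.1 to 563.7 FPKM, with 8 of 12 markers at 1 FPKM or more in all libraries of each group. PGR was without a count in any library. At day 25, 5 of the 9 endometrium markers tested were called lower and 2 higher in Hulunbuir, against 22.7% and 23.3% of all genes. COL8A2 and COL19A1 were not analysed here, nor were sequences.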

Additional observations from a re-analysis of the deposited data

Results flagged for a closer look

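The change with age differed between the breeds, by the edgeR interaction term over 12 libraries, for 10 of 30 collagens, each more negative in Hulunbuir, where 19.2% of all genes were called and 10.3% were called negative. The interaction was -2.54 on the log2 scale for COL11A2, -2.77 for COL9A2, -3.40 for COL22A1 and -2.42 for COL2A1. It was -2.31 for COL13A1, -1.94 for COL16A1 and -1.78 for COL4A6. For COL1A1 it was -2.35, for COL26A1 -1.44 and for COL4A5 -1.57, the 3 with the weakest support when libraries were left out. COL11A2 and COL9A2 rose in both breeds, by less in Hulunbuir. COL22A1, COL2A1, COL13A1 and COL26A1 rose in Ujumqin and did not pass in Hulunbuir. COL16A1 was called higher with age in Ujumqin and lower in Hulunbuir, but the Hulunbuir call was lost in 12 of 21 alternative fits. COL4A5 fell in both breeds, and COL1A1 and COL4A6 fell in Hulunbuir and did not pass in Ujumqin. Erythroid markers moved the other way in the same term, with 9 of 10 called more positive (median 6.55), where 8.89% of all genes were. So did yolk sac and liver markers, with 7 of 12 (median 3.85). Their part in the collagen values was not tested.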

How the results depend on the processing

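Of the collagen calls, 12 of 25 at day 25, 13 of 17 for age in Ujumqin, 14 of 19 for age in Hulunbuir and 5 of 10 for the interaction were kept in every alternative run. Breed at day 16 called 7 collagens with DESeq2, 3 with voom, 3 with the replicate block and 7 with all 12 libraries, against 0, and 1608, 487, 293 and 2459 of all genes, against 3; the 3 limma fits on FPKM called 0 genes, and leaving out 1 library gave 0 to 200. At day 25 all 12 libraries together called 12 collagens and 2440 genes. The interaction called 17 collagens with DESeq2 and 6 on rescaled FPKM, 5 lower and 1, COL5A3, higher, and leaving out 1 library gave 1561 to 3337 genes. Leaving out 1 library gave 7 to 11 chain ratios. On FPKM rescaled to a common sum, COL2A1 (0.10) and MRC2 (0.031) at day 25 turned sign, neither being called. The FACIT sum rose with age by 0.15 as CPM and by 0.27 as a share of all genes, with or without mitochondrial ones, against 0.62, and the transmembrane sum was at -0.24, -0.92 and -0.93, against -0.57. The cause of each of these shifts was not tested. DESeq2 gave no adjusted p for FAP with age.

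Same-numbered libraries of the breeds deviated together at day 16 alone, and in the other comparisons they correlated at -0.0539 to 0.0791. There the replicate block called 25 collagens at day 25, 17 for age in Ujumqin, 18 for age in Hulunbuir and 9 for the interaction, against 25, 17, 19 and 10. The 8 collagens below the filter reached at most 386 counts in a library (COL4A4), and COL10A1 at most 38, so depth limits what can be read of the lowest of them.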

Other observations

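The collagens without a symbol in the table, which lie outside the rule, were measured in the same fits. COL9A3, a cartilage FACIT chain, averaged 0.941 ± 0.321 FPKM in Ujumqin day 16, 1.98 ± 0.695 in Hulunbuir day 16, 43 ± 5.86 in Ujumqin day 25 and 21.2 ± 0.467 in Hulunbuir day 25 (SD, n = 3). It rose with age by 5.65 ± 0.27 on the log2 scale in Ujumqin (edgeR adjusted p = 4.88e-07) and by 3.30 ± 0.24 in Hulunbuir (7.41e-06), and was lower in Hulunbuir at day 25 by a log2 change of -1.34 ± 0.08 (1.62e-05). COL7A1, the anchoring fibril chain of skin, averaged 3.46 ± 1.53, 4.78 ± 0.557, 7.34 ± 0.542 and 4.2 ± 0.307 FPKM in the same order. It rose in Ujumqin by 1.24 ± 0.22 (edgeR adjusted p = 0.000525), did not pass in Hulunbuir (-0.34 ± 0.22, 0.228) and was lower in Hulunbuir at day 25 (-1.13 ± 0.08, 2.75e-05). COL6A1 was lower in Hulunbuir at day 25 (-1.72 ± 0.19, edgeR adjusted p = 0.00025) and did not pass in either age comparison. COL20A1 had no count in 10 of 12 libraries.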
